A study of Mus musculus with 24 samples.

Results

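The genes described here are 28 genes of peripheral glia, chosen by symbol from a fixed list and all found among the 45777 genes of the deposited table. That list and the further gene lists below were chosen with earlier results of these data known, so the shares of genes called are descriptive. The 28 genes fall into 11 genes of the myelin sheath, 6 genes of the Schwann cell lineage, 7 genes of satellite glia and 4 genes of non-myelinating or injured glia. PolyA RNA was sequenced from dorsal root ganglia (DRG), where the cell bodies of sensory neurons and their satellite glia lie, and from skin of female BALB/c mice 6 weeks old. There were 4 groups of 6 libraries, which were model DRG, control DRG, model skin and control skin. The model mice received LL37, the human cathelicidin antimicrobial peptide that induces rosacea-like inflammation, at 320 µM in 40 µL into the skin over 2 days. The injection of the control mice, if any, is not given. The study description also names gabapentin by mouth at 100 mg/kg from day 3 and collection of DRG on day 4, but no sample label says which mice had the drug, so it cannot be told apart from the difference between model and control. No label says whether each library is an animal of its own, and the p-values below therefore reflect the spread between samples alone, which may be technical.

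Schwann cells wrap peripheral axons, and those around large axons lay down compact myelin, a stack of membranes held together by a small set of adhesion and lipid-binding proteins. Their identity is set by SOX10, and EGR2 turns on the myelin genes, while SOX2 is kept on in immature and injured Schwann cells and opposes EGR2. Satellite glia envelop the neuron bodies of the ganglion, take up glutamate and potassium, and are coupled to each other by gap junctions. In skin the nerves are a minor part of the tissue, and several of these genes are also used there by keratinocytes, hair follicles, melanocytes, fibroblasts or muscle.

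The tissue labels matched their marker genes. Summed TPM (transcript abundance scaled to transcript length and library size by the authors) over 20 neuronal genes spanned 17891 to 22420 in model DRG, 18822 to 23552 in control DRG, 27.4 to 52.0 in model skin and 28.1 to 69.3 in control skin, with Uchl1 and Tubb3 the highest over all libraries. Total counts per library ranged from 45238735 to 68396846. A pair of libraries stood apart. DRG control 5 was the highest of the 12 DRG libraries for 15 of 16 genes of brain and spinal cord oligodendrocytes and astrocytes. Skin control 2 had a summed TPM of 996 over 12 hair follicle genes, where the other 5 control skin libraries had 25721 to 40293. Some estimates that rest on these libraries are also given without them.

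In DRG many of the glial genes were abundant. In control DRG the highest median was that of Pmp22, a membrane protein of compact myelin, at 5617 TPM, with a range of 4163 to 6555 TPM. Apoe, the apolipoprotein E secreted by satellite glia, had a median of 4105 TPM, with a range of 3626 to 5035 TPM. Mbp, the basic protein that seals the cytoplasmic faces of the myelin membrane, had a median of 3831 TPM, with a range of 2443 to 4464 TPM. The ranges of Apoe and Mbp overlapped each other and that of Pmp22. Within libraries, Pmp22 lay above Mbp in every control DRG library. It also lay above Apoe in all of them except control 5, with 4163 TPM of Pmp22 and 5035 TPM of Apoe. Apoe lay above Mbp in some control libraries and below it in others.

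A lower tier of control DRG held S100b, the calcium-binding S100 protein of glia, at a median of 814 TPM, Fabp7, the brain-type fatty acid binding protein of satellite glia, at 623 TPM, and Pmp2, the lipid-binding P2 protein of myelin, at 580 TPM. The range of S100b, 796 to 974 TPM, lay above that of Fabp7, 506 to 790 TPM, which overlapped that of Pmp2. The regulators stood far below. Sox10 had a median of 72.6 TPM, Egr2 42.7 TPM, Foxd3 9.51 TPM and Sox2 9.14 TPM. Gfap, which is no regulator but the intermediate filament of astrocytes and of non-myelinating Schwann cells, was also low, at a median of 8.14 TPM. The ranges of Foxd3, 8.30 to 12.8 TPM, and Sox2, 8.47 to 9.84 TPM, overlapped.

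Levels in DRG exceeded those in skin for most of the list, as a description with no test, since dissection, cell makeup and tissue differ together. Every control DRG library lay above every control skin library for 22 of 28 genes. The gap was widest for Fabp7, with medians of 623 TPM in control DRG and 0.984 TPM in control skin, a ratio of 634. Pmp2 had medians of 580 TPM in control DRG and 0.934 TPM in control skin, a ratio of 621. S100b followed at a ratio of 233 and Mbp at 179, whereas Cadm4, an adhesion molecule between axon and Schwann cell, had a ratio of 10.1.

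Skin was the higher tissue for 3 of the 28 genes. Gja1, the gap junction protein connexin 43 of satellite glia and also of keratinocytes, had medians of 1244 TPM in control skin and 47.1 TPM in control DRG, a ratio of 26.4. Erbb3, the neuregulin receptor of Schwann cells that epithelia also carry, had medians of 83.9 TPM in control skin and 31.8 TPM in control DRG. Egr2 had medians of 96.3 TPM in control skin and 42.7 TPM in control DRG. For Glul, the glutamine synthetase of satellite glia, for Slc1a3, their glutamate transporter, and for Apoe the libraries of the tissues overlapped. The deposited TPM of Apoe in skin did not follow its counts, so its skin level in TPM is uncertain.

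**Figure D1:**
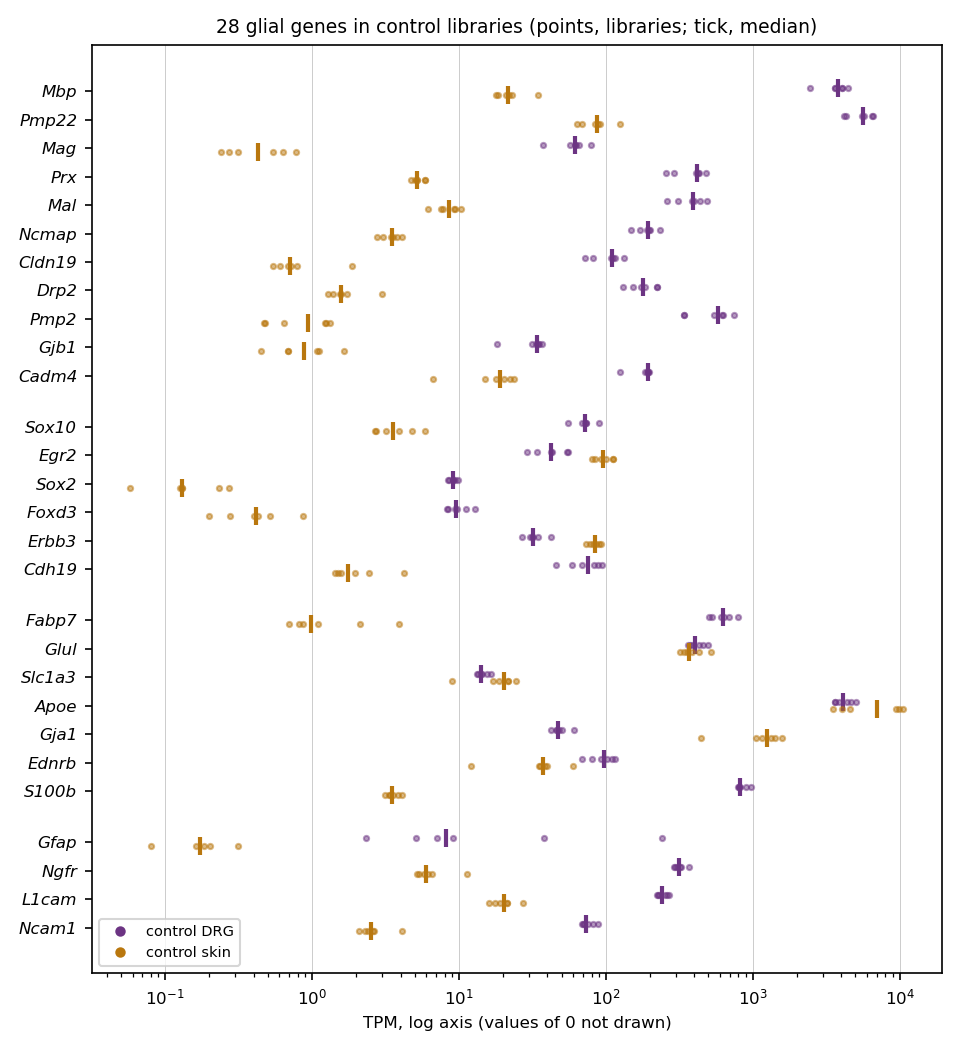
Levels of the 28 glial genes in control libraries, in TPM on a log axis, with control DRG drawn above control skin in each row; points are libraries and ticks are medians of 6, and 1 control skin value of Gfap at 0 is not drawn. DRG lies to the right of skin for 22 genes, and Gja1, Erbb3 and Egr2 lie the other way.

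The first comparison asked whether the model changed these genes in the ganglion. None of the 28 passed in DRG. At an adjusted p under 0.05 (edgeR quasi-likelihood test, Benjamini-Hochberg over 19509 genes) 0 genes of the list were higher and 0 were lower in model DRG, where 0.0974% of all tested genes were higher and 0% were lower. DESeq2 likewise called 0. At an unadjusted p under 0.05 there were 3 of 28 (10.7%), Pmp2, S100b and Gfap, against 9.34% of all genes. In 0 of 28 did the groups separate without overlap, where 0.379% of all genes separated higher and 0.149% lower. The 95% intervals of 26 genes lay within 1 log2 unit of 0, and those of 21 within 0.5 log2 units, and larger changes lie outside those intervals. The exceptions to the wider limit were Pmp2 and Gfap.

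The myelin sheath genes had mostly negative estimates in DRG, and none passed. Their median log2 fold change was -0.23, against -0.01 over all tested genes, and 10 of 11 were below 0. Mbp had 2430, 2997, 3570, 3023, 2460 and 2430 CPM (counts scaled to library size with TMM factors) in model DRG, against 3953, 3705, 2208, 3486, 3101 and 3687 CPM in control DRG. Model libraries lay mostly at the lower end, but the lowest value of all 12 was a control library. The log2 fold change was -0.25 ± 0.14 (SE, n = 6 each, adjusted p = 0.583).

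Pmp22 had 3087, 3895, 4033, 3382, 2762 and 3189 CPM in model DRG, against 4740, 4907, 3144, 4310, 3123 and 4099 CPM in control DRG, and a log2 fold change of -0.26 ± 0.13 (SE, adjusted p = 0.553). Pmp2 had 191, 255, 273, 160, 103 and 203 CPM in model DRG, against 333, 416, 183, 355, 189 and 300 CPM in control DRG. The groups overlapped through control libraries 3 and 5, and the log2 fold change of -0.58 ± 0.26 had an adjusted p of 0.525. Mag, the glycoprotein by which myelin contacts the axon, averaged 50.2 ± 8.4 CPM in model DRG and 60.6 ± 14.3 CPM in control DRG (SD, n = 6 each, log2 fold change -0.27, adjusted p = 0.62). Oligodendrocytes also make Mag, and DRG control 5, the library high in brain and spinal cord genes, had the highest Mag of the 12 DRG libraries, 78.9 CPM. Without it the log2 fold change of Mag was -0.18 (adjusted p = 0.662). Prx, the periaxin scaffold of the Schwann cell surface, averaged 756 ± 132 CPM in model DRG and 766 ± 176 CPM in control DRG (SD). Drp2, its partner dystrophin-related protein, was the only myelin sheath gene with a positive estimate in DRG, at 0.09 on the log2 scale.

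Single DRG libraries stood high or low for many of the myelin genes at once. DRG control 3 was the lowest of its group for 8 of 11 myelin genes, and DRG model 3 was the highest of its group for 10 of 11. DRG control 5 was mixed, the lowest of its group for 3 of 11 and the highest for 2 of 11. The median over the 11 genes of the log2 CPM, centred on each gene's mean, ran from -0.30 to 0.21 in model DRG and from -0.46 to 0.37 in control DRG, so the spread within each group was larger than the median difference between them. With a library left out, the median log2 fold change ran from -0.31 to -0.17. It was -0.31 without DRG control 3 or DRG model 3, -0.17 without DRG model 6 and -0.19 without DRG control 5. In bulk tissue, fewer glia and less RNA per glial cell cannot be told apart.

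**Figure D2:**
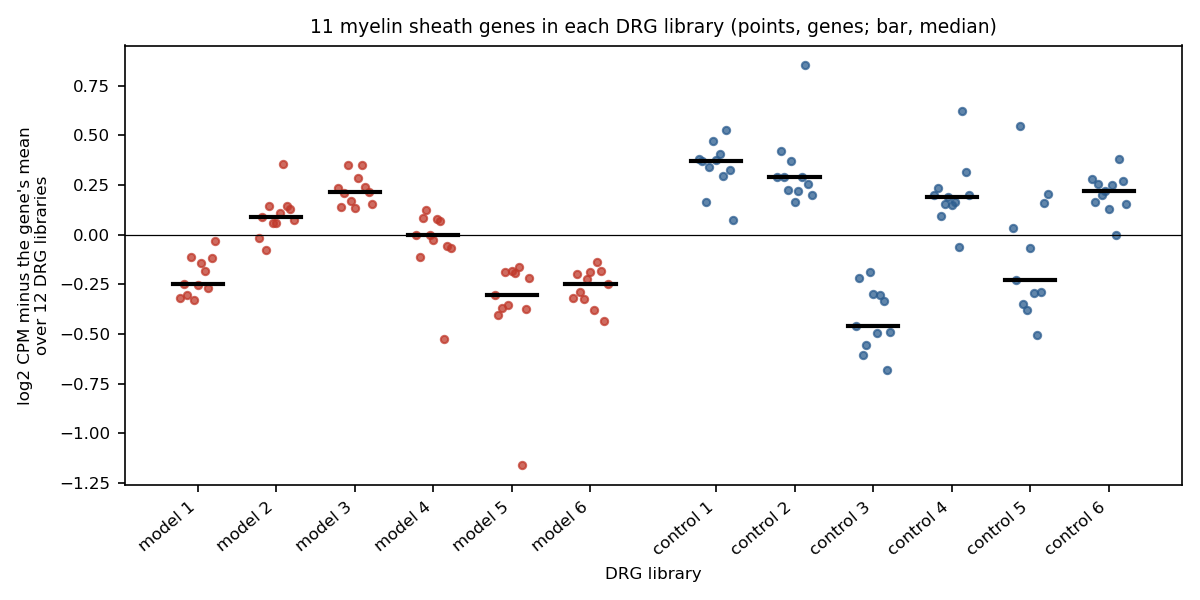
The 11 myelin sheath genes in each DRG library, as log2 CPM minus the gene's mean over 12 libraries; points are genes, bars are medians, with model libraries left and control libraries right. The medians span -0.30 to 0.21 in model DRG and -0.46 to 0.37 in control DRG, and control 3 has the lowest median.

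The lineage genes were even in DRG. Sox10, the master regulator of peripheral glia, averaged 82.9 ± 8.7 CPM in model DRG and 79.2 ± 11.9 CPM in control DRG (SD, n = 6 each). Its log2 fold change was 0.07, with a 95% interval of -0.15 to 0.28. Sox2 averaged 9.40 ± 1.23 CPM in model DRG and 9.08 ± 0.43 CPM in control DRG (SD). Erbb3, Egr2 and Foxd3, a regulator of neural crest and early glia, had log2 fold changes of 0.11, 0.02 and 0.04, and Cdh19, a cadherin of Schwann cell precursors and satellite glia, had -0.14. None of these 6 had an unadjusted p under 0.05.

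Among satellite glia genes in DRG the estimates lay between -0.16 and 0.22 on the log2 scale. Glul had the highest, with 445 to 718 CPM (median 535) in model DRG and 422 to 573 CPM (median 460) in control DRG and an adjusted p of 0.567. S100b had the lowest, with 551, 527, 529, 465, 489 and 526 CPM in model DRG, against 523, 617, 529, 666, 559 and 544 CPM in control DRG. The ranges of S100b overlapped, and the log2 fold change of -0.16 ± 0.07 had an adjusted p of 0.513. Fabp7 averaged 198 ± 15 CPM in model DRG and 193 ± 35 CPM in control DRG (SD). Gja1, which couples satellite glia, had a log2 fold change of 0.14, with a 95% interval of -0.07 to 0.35. Slc1a3, Apoe and Ednrb, the endothelin B receptor of glia, had log2 fold changes of -0.07, -0.10 and -0.01. DRG control 5, the library high in astrocyte genes, was the highest control for 4 of 7, Glul, Slc1a3, Apoe and Gja1. It was the lowest control for 1 of 7. The median log2 fold change of the 7 genes was -0.01 with all libraries and -0.02 without DRG control 5.

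Gfap had the widest spread of the list in DRG, and a single library set its estimate. It had 4.71, 1.12, 10.4, 19.2, 5.66 and 6.88 CPM in model DRG, against 9.81, 5.70, 7.67, 2.60, 267 and 41.7 CPM in control DRG. The 267 CPM belonged to DRG control 5, above every other library, and the controls other than 5 and 6 lay within the range of the model libraries. The log2 fold change was -2.81 ± 1.14 (SE, adjusted p = 0.51), and without DRG control 5 it was -0.76, with a 95% interval of -2.56 to 1.03 (adjusted p = 0.716).

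DRG control 5 also carried RNAs that define glia of the brain and spinal cord. Slc1a2, the astrocyte glutamate transporter, had 7.12 to 10.8 CPM in model DRG, and in control DRG 265 CPM in control 5 and 8.80 to 10.9 CPM in the other 5 libraries. Aqp4, the astrocyte water channel, had 6.00 to 9.72 CPM in model DRG, and 61.6 CPM in control 5 against 8.10 to 10.0 CPM in the other controls. Mobp, an oligodendrocyte myelin protein, had 1.44 to 15.3 CPM in model DRG, and 208 CPM in control 5 against 7.40 to 32.8 CPM in the other controls. Olig2, the oligodendrocyte lineage factor, was at 0 to 0.0584 CPM in model DRG, and had 3.15 CPM in control 5 against 0 to 0.0792 CPM in the other controls.

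Over the whole lists, the summed TPM of 10 oligodendrocyte genes was 38.6 to 60.2 in model DRG, and 277 in control 5 against 52.0 to 75.9 in the other controls, led by Aspa and Mobp. That of 6 astrocyte genes, Gfap among them, was 36.0 to 53.9 in model DRG, and 387 in control 5 against 36.6 to 71.8 in the other controls. None of the 16 genes was at 0 in all of the control libraries. Aspa alone among them was not highest in control 5. It had 16.4 CPM there, against 22.4 to 31.0 CPM in the other controls and 17.7 to 22.4 CPM in model DRG. The part of such tissue in the Gfap value of control 5 was not tested. Leaving that library out changed no call among the 28 genes in DRG.

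**Figure D3:**
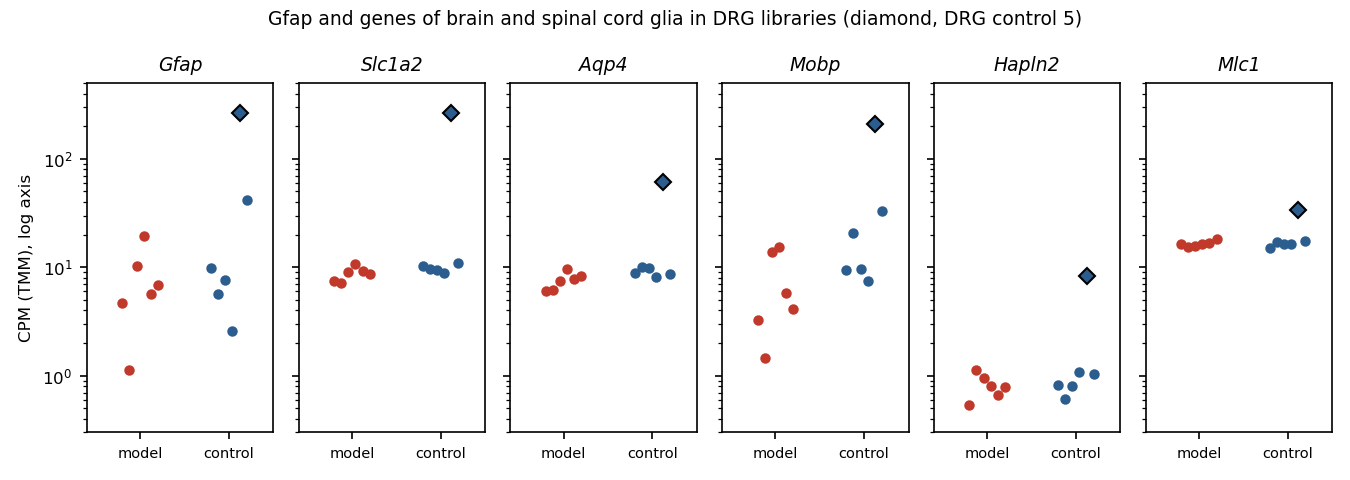
Gfap and 5 genes of brain and spinal cord glia in DRG libraries, in CPM on a log axis, model left and control right, with DRG control 5 as a diamond. Control 5 is the highest library in all 6 panels, at 267 CPM for Gfap and 265 CPM for Slc1a2.

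The remaining genes of non-myelinating or injured glia had narrow intervals in DRG. Ngfr, the p75 neurotrophin receptor that injured Schwann cells raise, averaged 424 ± 40 CPM in model DRG and 439 ± 42 CPM in control DRG (SD, n = 6 each), with a log2 fold change of -0.05 and a 95% interval of -0.21 to 0.11. The adhesion molecules L1cam and Ncam1, which neurons express as well, had log2 fold changes of 0.05 and -0.04, each with an SE of 0.06. DRG control 5 was the highest of the 12 DRG libraries for Ngfr, at 514 CPM, and for Ncam1, at 218 CPM, and without it their log2 fold changes were 0.00 and 0.01.

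Further genes of the same pathways were counted in DRG. Of 29 other myelin genes 0 passed, with a median log2 fold change of -0.03. Itgb4, the laminin receptor subunit of Schwann cells, had 0.33 and Cd9, a tetraspanin, -0.14 on the log2 scale. Of 17 cholesterol synthesis genes, which supply myelin lipid, 0 passed and 14 were below 0, with a median of -0.07. Fdft1, Fdps and Cyp51, enzymes of that pathway, had log2 fold changes of -0.12, -0.15 and -0.20. Of 23 other satellite glia genes 0 passed, and Dbi, an acyl-CoA binding protein, had -0.11 on the log2 scale.

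One gene of 17 tested repair Schwann cell genes rose in DRG. Atf3, a stress transcription factor that injured sensory neurons also switch on, had 24.1 to 38.9 CPM (median 31.3) in model DRG and 4.19 to 6.88 CPM (median 6.02) in control DRG. The groups did not overlap, and the change was 5.48-fold (log2 2.46 ± 0.14, SE, adjusted p = 1.62e-06). In the same list Tgfb1 had 0.56 and Lif 0.40 on the log2 scale, with adjusted p of 0.479 and 0.573. Of 13 genes of the neuregulin and ERBB axis 0 passed in DRG. Erbb4, a neuregulin receptor, averaged 3.66 ± 0.91 CPM in model DRG and 6.03 ± 1.06 CPM in control DRG (SD, log2 fold change -0.72, adjusted p = 0.254), Egfr had 0.85 and Erbb2, the partner receptor of Erbb3, 0.27 on the log2 scale.

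In skin, 7 of the 28 genes changed. Pmp22, Mag and Pmp2 of the myelin sheath, Sox2 and Foxd3 of the lineage and Ncam1 were higher in model skin, and Erbb3 was lower. Among all 19526 tested genes 14.1% were higher and 5.82% were lower in model skin at the same adjusted p under 0.05, against 6 of 28 (21.4%) and 1 of 28 (3.57%) in the list. The lower share of all genes rested on single libraries, from 1.57% without model skin library 4 to 12.8% without control skin library 2. The median log2 fold change of the list was 0.26, against -0.02 over all genes. The groups did not overlap for 2 of the 6 higher genes, Pmp22 and Ncam1, and for Erbb3, which is 7.14% and 3.57% of the list against 7.25% and 1.44% of all genes.

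**Figure D4:**
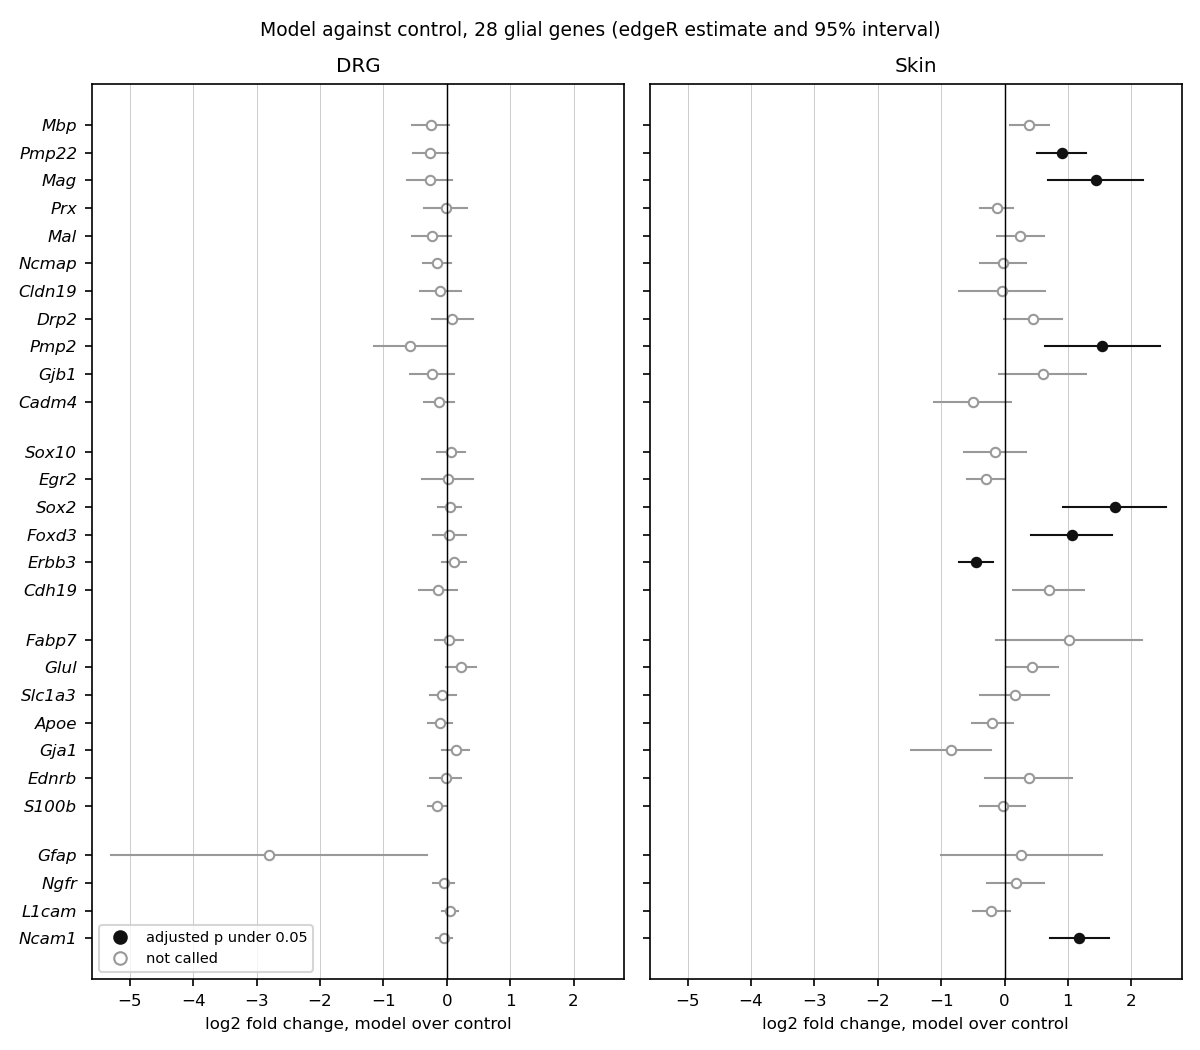
Log2 fold change of model over control for the 28 genes in DRG (left) and skin (right), grouped by role, with 95% intervals; filled black points have an adjusted p under 0.05. No gene passes in DRG, and Pmp22, Mag, Pmp2, Sox2, Foxd3, Ncam1 and Erbb3 pass in skin.

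Because 4 of the 6 higher genes have an entry among the RefSeq promoter windows, the 250 bases before their first listed start (GRCm38.p6) are shown for genes that moved together. Capitals mark matches to the SOX core, ACAAAG or ACAATG, and to the EGR core, GTGGGCG or GTGGGTG, on either strand. The windows lie at chr11:63128732-63128981 on the plus strand for Pmp22, chr7:30914864-30915113 on the minus strand for Mag, chr3:34649745-34649994 on the plus strand for Sox2 and chr4:99656049-99656298 on the plus strand for Foxd3.
Pmp22: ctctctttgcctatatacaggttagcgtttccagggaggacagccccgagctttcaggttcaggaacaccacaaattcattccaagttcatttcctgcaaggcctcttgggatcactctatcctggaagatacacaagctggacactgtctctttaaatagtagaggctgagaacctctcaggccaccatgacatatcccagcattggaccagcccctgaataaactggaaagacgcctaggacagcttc
Mag: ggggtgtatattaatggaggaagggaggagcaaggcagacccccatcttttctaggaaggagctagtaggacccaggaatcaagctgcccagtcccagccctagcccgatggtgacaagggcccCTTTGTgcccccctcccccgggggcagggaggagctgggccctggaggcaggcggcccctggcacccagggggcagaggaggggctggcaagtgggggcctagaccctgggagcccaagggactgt
Sox2: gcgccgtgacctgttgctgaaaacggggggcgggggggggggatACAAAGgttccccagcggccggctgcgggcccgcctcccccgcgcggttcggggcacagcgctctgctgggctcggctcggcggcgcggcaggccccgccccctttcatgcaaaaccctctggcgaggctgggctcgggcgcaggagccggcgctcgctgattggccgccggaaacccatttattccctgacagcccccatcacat
Foxd3: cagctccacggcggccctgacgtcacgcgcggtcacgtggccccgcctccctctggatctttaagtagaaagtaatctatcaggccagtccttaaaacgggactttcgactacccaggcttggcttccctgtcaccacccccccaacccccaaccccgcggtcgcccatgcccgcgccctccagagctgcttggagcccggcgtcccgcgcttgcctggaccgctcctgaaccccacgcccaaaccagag
Mag and Sox2 each had 1 SOX match, Pmp22 and Foxd3 had 0 matches of either kind, and none of the 4 held an EGR match. Windows were listed for 21 of the 28 genes. A SOX match stood in 5 of 21 (23.8%), against 25.5% of the 27025 windows of all genes, and an EGR match in 6 of 21 (28.6%), against 13.9%. The members with an EGR match were Cldn19, Ncmap, Apoe, Cadm4, Prx and Egr2, and 0 of them changed in skin. Pmp2, Ncam1, Erbb3, Drp2, Sox10, Mbp and Cdh19 had no window.

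Pmp22 (chr11:63128982-63159547, GRCm38) was the most abundant of the myelin genes in skin by TPM, with a median of 87.0 TPM in control skin. It had 209, 121, 136, 155, 123 and 127 CPM in model skin, against 78.4, 109.9, 63.2, 83.3, 75.0 and 55.2 CPM in control skin. The groups did not overlap, and control library 2 came nearest to the model libraries. The change was 1.88-fold (log2 0.91 ± 0.18, SE, n = 6 each, adjusted p = 0.00441). Pmp22 is also made by fibroblasts, for which 6 of 10 marker genes (60%) rose in model skin, against 14.1% of all tested genes.

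Mag (chr7:30899176-30914873) was scarce in skin. It had 2.07, 2.60, 1.48, 1.20, 0.874 and 1.49 CPM in model skin, against 0.692, 0.999, 0.312, 0.816, 0.397 and 0.359 CPM in control skin. The groups met only through model library 5 and control library 2, and the change was 2.72-fold (log2 1.44 ± 0.35, SE, adjusted p = 0.013). Pmp2 (chr3:10179851-10183929) had 2.07, 3.54, 1.06, 0.661, 1.48 and 1.67 CPM in model skin, against 0.871, 0.829, 0.329, 0.834, 0.317 and 0.419 CPM in control skin. Model library 4 lay within the control range, and the change was 2.91-fold (log2 1.54 ± 0.42, SE, adjusted p = 0.0224). Pmp2 did not pass when control skin library 3, 5 or 6 was left out.

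The other myelin genes did not pass in skin. Mbp had 57.1, 58.9, 52.5, 44.6, 61.4 and 45.7 CPM in model skin, against 41.4, 57.6, 35.1, 41.6, 37.9 and 30.2 CPM in control skin, a log2 fold change of 0.39 ± 0.14 (SE, adjusted p = 0.0717). Only control library 2 reached above the lower model libraries. Drp2 had 6.30 to 10.2 CPM (median 9.73) in model skin and 5.20 to 11.7 CPM (median 5.75) in control skin, where the 11.7 CPM was control library 2. Gjb1, the connexin 32 of myelin, had a log2 fold change of 0.60 (adjusted p = 0.191), and Mal, a raft proteolipid of myelin, 0.25.

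Prx and Ncmap, which are largely specific to myelinating Schwann cells, had log2 fold changes in skin of -0.12 and -0.02, with 95% intervals of -0.38 to 0.14 and -0.39 to 0.34. Cldn19, the claudin of Schwann cell tight junctions, had -0.04 with an interval of -0.72 to 0.64, and 0.30 (adjusted p = 0.337) without control skin library 2, which had the highest Cldn19 of the skin libraries, 3.57 CPM. Cadm4 had a median of 11.9 CPM in model skin and 19.4 CPM in control skin and a log2 fold change of -0.50 (adjusted p = 0.224). The myelin list in skin thus held 3 higher genes (27.3%), 0 lower genes and 8 that did not pass, with a median log2 fold change of 0.39. Of all tested genes 14.1% were higher and 5.82% were lower in model skin.

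Sox2 (chr3:34650405-34652461) was also scarce in skin. It had 0.513, 0.288, 0.522, 0.811, 0.726 and 1.02 CPM in model skin, against 0.335, 0.276, 0.173, 0.0710, 0.159 and 0.160 CPM in control skin. Model library 2 lay within the control range and the other model libraries above it, a change of 3.33-fold (log2 1.74 ± 0.38, SE, adjusted p = 0.00723). Sox2 lies inside the long noncoding RNA gene Sox2ot on the same strand, and Sox2ot had 0.201 to 0.676 CPM in model skin and 0.0347 to 0.213 CPM in control skin (log2 1.49, adjusted p = 0.0252). How reads were shared between them is not stated, so both values are uncertain. Sox2 is also made by Merkel cells and the dermal papilla of hair follicles.

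Foxd3 (chr4:99656299-99658622) had 1.20, 0.865, 1.24, 1.23, 0.923 and 1.10 CPM in model skin, against 0.603, 0.999, 0.485, 0.337, 0.238 and 0.499 CPM in control skin. The groups met through control library 2, and the change was 2.09-fold (log2 1.06 ± 0.29, SE, adjusted p = 0.0247). Foxd3 did not pass when model skin library 1 or control skin library 3, 4 or 6 was left out. Sox10, which melanocytes share with glia, had 3.56 to 6.66 CPM (median 4.12) in model skin and 3.51 to 7.50 CPM (median 4.58) in control skin, a log2 fold change of -0.15 with a 95% interval of -0.64 to 0.34. Cdh19 had a median of 8.06 CPM in model skin and 3.76 CPM in control skin, with 8.80 CPM in control library 2 (log2 0.70 ± 0.26, SE, adjusted p = 0.0742). Egr2 had a log2 fold change of -0.30 (adjusted p = 0.13).

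Erbb3 (chr10:128567523-128589652) was the single gene of the list that fell in skin. It had 133, 165, 203, 139, 215 and 201 CPM in model skin, against 245, 255, 219, 231, 265 and 232 CPM in control skin. Every model library lay below every control library, and Erbb3 was 1.37-fold lower (log2 -0.45 ± 0.12, SE, adjusted p = 0.0239). It did not pass without model skin library 4 (0 of 28 genes lower) or without control skin library 5 (likewise 0), nor with limma on log2 TPM. Keratinocytes express Erbb3, and the summed TPM of 10 keratinocyte genes, led by Krt5 and Krt14, was 8525 to 22629 in model skin and 12015 to 27959 in control skin.

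Satellite glia genes did not pass in skin, where 0 of 7 were higher or lower, against 14.1% higher and 5.82% lower among all tested genes. Gja1 came closest, with 721, 1450, 1146, 577, 1009 and 942 CPM in model skin, against 1726, 660, 2202, 1626, 1965 and 2299 CPM in control skin. Control library 2, the library with few hair follicle transcripts, was the only control within the model range. The log2 fold change was -0.84 ± 0.29 (SE, adjusted p = 0.0585). Glul had 505 to 1115 CPM (median 711) in model skin and 450 to 700 CPM (median 503) in control skin, a log2 fold change of 0.44 (adjusted p = 0.12). Fabp7 had 0.297 to 2.25 CPM in model skin and 0.266 to 1.42 CPM in control skin (log2 1.01 ± 0.53, SE, adjusted p = 0.191). Ednrb, Slc1a3, S100b and Apoe had log2 fold changes of 0.38, 0.16, -0.03 and -0.20, all with intervals that covered 0.

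Ncam1 (chr9:49502136-49798925), the neural cell adhesion molecule of non-myelinating Schwann cells and of axons, had the smallest p of the list in skin. It had 17.7, 14.3, 15.1, 30.2, 20.5 and 15.5 CPM in model skin, against 8.84, 12.5, 6.61, 7.91, 6.84 and 7.18 CPM in control skin. All model libraries lay above all control libraries, a change of 2.27-fold (log2 1.18 ± 0.21, SE, adjusted p = 0.00269). Regenerating muscle also makes Ncam1. Of 9 regenerating muscle genes 8 (88.9%) rose in model skin, against 14.1% of all tested genes. Chrng was at 0 in all control skin libraries. The summed TPM of the 9 genes was 81.6 to 222 in model skin and 12.7 to 38.2 in control skin, led by Myl4 and Myh8. Model skin 4 had the highest value of both Ncam1 and that sum, whereas model skin 2 had the next highest sum, 147.5 TPM, and the lowest Ncam1 of the model libraries. Ngfr, L1cam and Gfap had log2 fold changes in skin of 0.18, -0.21 and 0.26, and none passed.

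**Figure D5:**
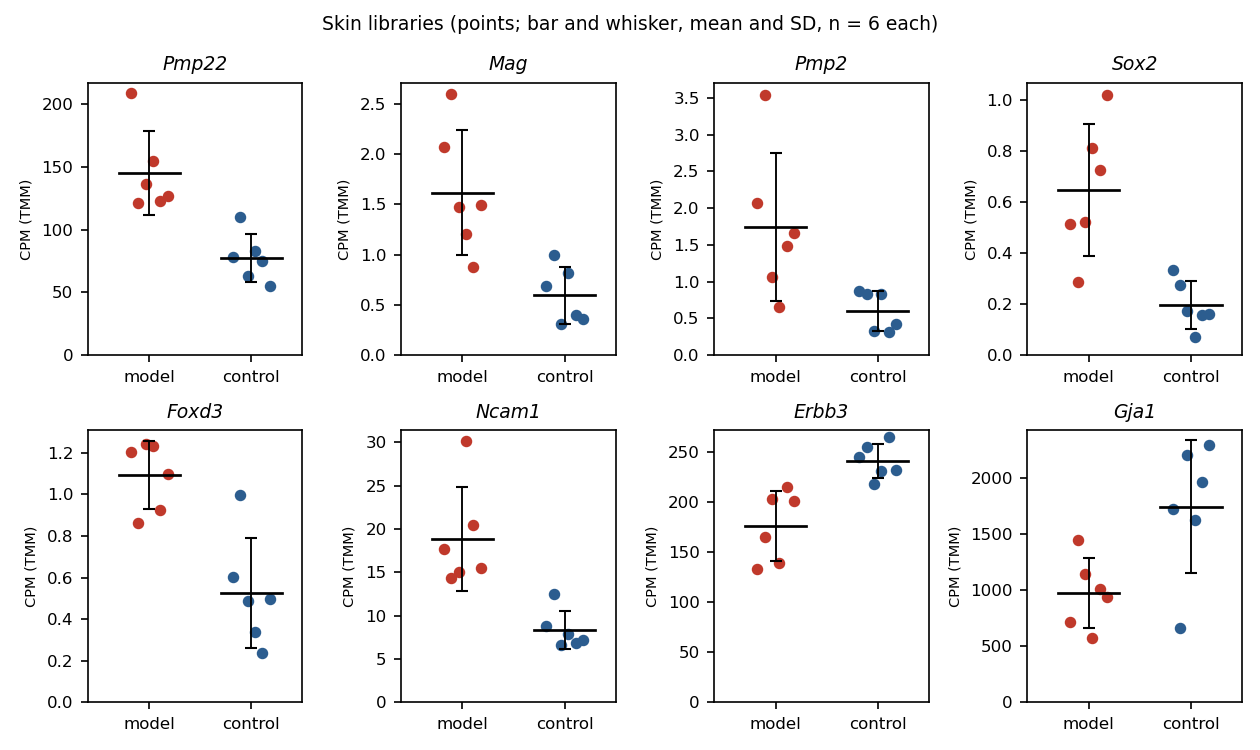
Values of 8 glial genes in skin libraries, in CPM after TMM scaling, model left and control right; points are libraries, bars and whiskers are mean and SD of 6. Pmp22 and Ncam1 lie higher and Erbb3 lower in model skin with no overlap, and Gja1 overlaps through a single control library.

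Markers of several other skin cell types also differed between model and control skin, where 14.1% of all tested genes were higher and 5.82% were lower. All 12 macrophage genes rose, with a summed TPM of 1174 to 3541 in model skin and 310 to 784 in control skin, led by Lyz2 and C1qa. All 11 adipocyte genes rose, with 5454 to 35031 TPM in model skin and 4204 to 5996 TPM in control skin, led by Fabp4 and Car3. Endothelial genes rose in 9 of 10 cases, with 155 to 261 TPM in model skin and 91.3 to 143 TPM in control skin, led by Egfl7 and Pecam1. Fibroblast genes summed to 4790 to 8559 TPM in model skin and 2337 to 5184 TPM in control skin, led by Col3a1 and Dcn.

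Hair follicle genes summed to 1658 to 21404 TPM in model skin and 996 to 40293 TPM in control skin, led by Krt71 and Tchh, and 0 of 12 passed with a median log2 fold change of -1.58. Of 9 tested melanocyte genes 5 (55.6%) fell, against 5.82% of all tested genes. In 0 of the 9 did the groups separate without overlap. Those that fell were Tyrp1, Dct and, named afterwards, Pmel, Mc1r and Slc45a2. Sums, led by Tyrp1 and Dct, were 48.0 to 133 TPM in model skin and 70.8 to 946 TPM in control skin. Control skin libraries 3, 5 and 6 had 525, 263 and 946 TPM. Control skin libraries 1, 2 and 4, at 70.8, 72.2 and 72.9 TPM, lay within the model range. Of 11 tested genes of perineurium and endoneurium, the sheath and connective tissue of nerves, 2 rose (Apod and Clec3b) and 3 fell (Cldn1, Tjp1 and Gli1), likewise named afterwards. These are 18.2% and 27.3% of the list, against 14.1% and 5.82% of all tested genes. Their sums were 759 to 1017 TPM in model skin and 775 to 952 TPM in control skin, led by Apod and Cldn1. Bulk skin does not show whether these RNAs came from nerve sheath or from other skin cells. Of 10 tested neuronal genes 3 (30%) rose and 0 fell, against 14.1% and 5.82% of all tested genes. Uchl1 and, named after its values were seen, Ntrk2 were among those that rose. Estimates of 5 neuronal genes were below 0. Tubb3, a neuronal tubulin, had a log2 fold change of -1.66 (adjusted p = 0.127). The neuronal sums given above had medians of 34.6 TPM in model skin and 62.7 TPM in control skin. Of 10 mature muscle genes 0 passed, with sums of 1258 to 13563 TPM in model skin and 3227 to 12843 TPM in control skin, led by Acta1 and Ckm. The part of these cell types in the changes of the glial genes was not tested.

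Without skin control 2, the library low in hair follicle genes, 9 of 28 glial genes (32.1%) were higher and 3 (10.7%) were lower in model skin. Calls over all genes were also more in that fit, at 18.7% higher and 12.8% lower. The added higher genes were Mbp (log2 0.52), Drp2 (0.67) and Cdh19 (0.99), and the added lower genes were Gja1 (-1.01) and Cadm4 (-0.67). The median log2 fold change of the myelin sheath genes in skin was then 0.52. Pmp22, Mag and Ncam1 were called in every one of the 12 fits that left out a library and in all 8 other settings. Without control skin library 3 or 6 the higher genes numbered 4, since Pmp2 and Foxd3 were lost in both fits. Without model skin library 2 the lower genes were Erbb3 and Gja1. With DESeq2, Gja1 (adjusted p = 0.0171) and Cdh19 (adjusted p = 0.0376) passed as well.

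Further pathway genes in skin went several ways. Of 29 other myelin genes 4 rose, which were Cnp, Zeb2 and, outside the naming rule, Ugt8a and Art3, and 1 fell, which is 13.8% and 3.45% of the list against 14.1% and 5.82% of all tested genes. Cnp, an enzyme of myelin membranes, had 20.1 to 45.6 CPM in model skin and 8.67 to 19.2 CPM in control skin, a change of 2.22-fold (adjusted p = 0.00355), and Zeb2, a Schwann cell regulator that macrophages also express, was 2.81-fold higher (adjusted p = 0.00209). Pou3f1, the factor of promyelinating Schwann cells that keratinocytes also make, averaged 24.8 ± 6.0 CPM in model skin and 37.0 ± 6.2 CPM in control skin (SD, 1.49-fold lower, adjusted p = 0.0267).

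Of 17 cholesterol synthesis genes 0 rose and 4 (23.5%) fell in skin, against 14.1% and 5.82% of all tested genes. In this list 16 were below 0, with a median log2 fold change of -0.34. Sqle, a rate-limiting enzyme of the pathway, had 72.2 to 138 CPM in model skin and 121 to 154 CPM in control skin, 1.47-fold lower (adjusted p = 0.024). Mvd, outside the naming rule, fell as well. Keratinocytes and sebaceous glands also make cholesterol. Of 20 tested other satellite glia genes 4 (20%) rose and 0 fell, against 14.1% and 5.82% of all tested genes. Sparcl1, outside the naming rule, rose, as did Vim, an intermediate filament of mesenchymal cells and glia, at 2.96-fold. Mt3, a metallothionein, rose 2.60-fold and P2rx7, an ATP-gated channel, 1.36-fold. Satellite glia lie in the ganglion, and which skin cells carried these RNAs was not tested.

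Of 18 tested repair Schwann cell genes 7 (38.9%) rose and 0 fell in skin, against 14.1% and 5.82% of all tested genes. Estimates were above 0 for 14 and below 0 for 4. Those below 0, outside the naming rule, were Jun (log2 -0.02), Shh (-1.38), Artn (-0.05) and Igfbp2 (-0.30), and none of them passed. Gap43, a growth protein of regenerating axons and of Schwann cells, had 2.14 to 5.03 CPM in model skin and 0.104 to 0.692 CPM in control skin, a change of 8.94-fold with no overlap (adjusted p = 0.000582). Ccl2, a monocyte chemokine, was 9.99-fold higher and Atf3 3.01-fold higher. Of 12 tested genes of the neuregulin and ERBB axis 2 rose and 2 fell (16.7% each way), against 14.1% and 5.82% of all tested genes. The neuregulin Nrg2, outside the naming rule, was among those that fell. Erbb2 had 76.1 to 132 CPM in model skin and 136 to 165 CPM in control skin, 1.42-fold lower (adjusted p = 0.0152), and the ADAM family members Adam11 and Adam23 were each 1.79-fold higher.

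The last comparison tested whether the model's effect differed between skin and DRG, with all 24 libraries in a single fit. The effect was higher in skin for 6 of 28 genes (21.4%) and lower for 2 of 28 (7.14%), against 8.42% and 4.74% of 21998 tested genes. The 6 were Pmp22, Mag, Pmp2, Sox2, Foxd3 and Ncam1. Among these Pmp2 had the largest difference, 2.07 ± 0.48 on the log2 scale (SE, adjusted p = 0.00684), with an estimate of 1.54 in skin and -0.58 in DRG. Mag differed by 1.66 ± 0.36 (adjusted p = 0.00396), with 1.44 in skin and -0.27 in DRG. Pmp22 differed by 1.11 ± 0.22 (adjusted p = 0.00236), with 0.91 in skin and -0.26 in DRG.

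Sox2 differed by 1.66, Ncam1 by 1.19 and Foxd3 by 0.98 on the log2 scale, with adjusted p of 0.00358, 0.00116 and 0.0315. Erbb3 differed by -0.61 (adjusted p = 0.0158), with -0.45 in skin and 0.11 in DRG, and Gja1 by -1.03 (adjusted p = 0.0343), with -0.84 in skin and 0.14 in DRG, though Gja1 passed in neither tissue alone. Mbp, at 0.60 with an adjusted p of 0.0548, and Cdh19, at 0.80 with an adjusted p of 0.0679, did not pass. With limma on log2(TPM + 1), Sox2 (adjusted p = 0.127), Foxd3 (adjusted p = 0.145) and Gja1 (adjusted p = 0.0646) did not pass, whereas Mbp did (adjusted p = 0.0447). Mbp also passed with TMM factors set within each tissue (adjusted p = 0.0427) and with a filter of 1 CPM in 6 libraries (adjusted p = 0.0454). Leaving out libraries in turn, Pmp22, Mag, Pmp2, Sox2, Ncam1 and Erbb3 passed in all 24 fits. Foxd3 passed in 16 of 24 fits and was lost without DRG model 6, DRG control 1 or 2, skin model 1 or 4, or skin control 3, 4 or 6. Gja1 passed in 12 of 24 and was lost without DRG model 2, 3 or 4, DRG control 1, 3, 4 or 6, skin model 1 or 4, or skin control 3, 5 or 6. Mbp passed without DRG model 3, DRG control 3 or skin control 2, and Cdh19 without DRG control 5, skin model 2 or skin control 2.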

How the data were processed

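RNA was sequenced from 24 libraries, 6 in each of 4 groups that the sample titles define. Per the submitters' processing notes, HISAT2 2.1.0, StringTie 2.1.3b, bcl2fastq 2.20.0 and Trimmomatic were used with GRCm38/mm10. The counting step and its strand setting are not stated. The authors deposited read counts per gene without normalization, TPM values scaled to transcript length and library size, and FPKM values, which were not used. Gene positions and overlaps are from GENCODE M21 (GRCm38).

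Counts of each tissue were fitted over all genes in edgeR 4.0.16 (R 4.3.3) with filterByExpr, TMM scaling and the robust quasi-likelihood F test, without covariates, and called at a Benjamini-Hochberg adjusted p under 0.05. All 28 glial genes passed the filter. The difference between tissues was a contrast of 4 group means in a single fit of 24 libraries. The scripts were tested on simulated data. Alternatives were DESeq2 1.42.0, RLE factors, other filters, all libraries in 1 fit, a replicate block, limma 3.58.1 on log2(TPM + 1) and log2(TPM + 0.1), and each library left out. Levels between genes or tissues are TPM, and values within a tissue are TMM-scaled CPM. Of 60 pairs of libraries within groups none were duplicates (lowest chi-square per gene 9.13).

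The members and lists were chosen with earlier results of these data known. Named were all members, the 3 genes of smallest p per pathway list and tissue, and the 2 genes of highest mean per cell type list. Some genes that this rule selects are not reported here. Promoter windows are from RefSeq (GRCm38.p6).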

Additional observations from a re-analysis of the deposited data

Results flagged for a closer look

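A single library lay far from the other 5 of its group in 7 of 112 groups of 6 values, where chance flags about 1 in 20 groups (by Dixon's ratio of gap to range). Skin control 2 held 3 of these. It had 3.57 CPM of Cldn19 against 0.997 to 1.65 CPM in the other control skin libraries, 11.7 CPM of Drp2 against 5.20 to 6.57 CPM, and 8.80 CPM of Cdh19 against 2.91 to 5.0 CPM. This is the library with a summed TPM of 996 over hair follicle genes. DRG control 3 was low for Gjb1, with 11.5 CPM where the rest of the control DRG libraries had 20.6 to 23.1 CPM, and for Cadm4, with 107 CPM where they had 158 to 173 CPM. DRG control 5 had 267 CPM of Gfap against 2.60 to 41.7 CPM, beside its high values of brain and spinal cord glia genes. Skin control 6 had 18.2 CPM of Ngfr against 8.69 to 11.2 CPM. What set these libraries apart was not tested.

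The effect of the model differed between skin and DRG for 8 genes by the interaction test in edgeR. The differences on the log2 scale, skin minus DRG, were 1.11 for Pmp22, 1.66 for Mag, 2.07 for Pmp2, 1.66 for Sox2, 0.98 for Foxd3 and 1.19 for Ncam1, and -0.61 for Erbb3 and -1.03 for Gja1.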

How the results depend on the processing

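The count of 0 glial genes in DRG held under every alternative run, including the 12 fits that left out a library (0 to 0 higher and 0 to 0 lower). In skin the 6 higher genes became 3 with a filter of 1 CPM in 6 libraries, under which scarce genes were not tested, and ranged from 4 to 9 with a library left out. The 1 lower gene in skin became 2 with DESeq2, 2 with all 24 libraries in 1 fit and 0 with limma on either TPM scale, and ranged from 0 to 3 with a library left out. For the tissue difference the 6 higher genes ranged from 5 to 8 and the 2 lower from 1 to 2 with a library left out, and the lower count was 1 with limma on log2(TPM + 1). The cause of these shifts was not tested. No called gene changed sign. Over all genes, the 19 calls higher and 0 lower in DRG were 125 and 14 with DESeq2, 31 and 1 with all libraries in 1 fit, 12 and 0 with the filter of 1 CPM in 6 libraries and 6 and 0 with the replicate block. The 1137 lower calls in skin were 2240 with DESeq2, 3404 with all libraries in 1 fit, 747 with no filter, 540 with the block, and 447 and 448 with limma on log2(TPM + 1) and log2(TPM + 0.1). The 1852 higher and 1043 lower calls of the difference were 1212 and 486 with the block, and the lower ones 617 with limma. With a library left out, calls over all genes ranged from 11 to 34 higher and 0 to 2 lower in DRG, from 2141 to 3724 higher and 308 to 2554 lower in skin, and from 1524 to 2582 higher and 628 to 2271 lower for the difference. The counts moved over 1.5 times without DRG model 3 or 6 or DRG control 1 or 4 (higher in DRG), without DRG model 6 or DRG control 3 (lower in DRG), without skin model 1, 3, 4 or 6 or skin control 2, 3, 5 or 6 (lower in skin), and without skin model 1 or 5 or skin control 2, 3 or 5 (lower for the difference). At these depths Gfap in skin, at 0.0891 to 0.412 CPM in model and 0 to 0.444 CPM in control libraries, had a 95% interval of -1.01 to 1.53 on the log2 scale.

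The replicate numbers of the sample titles showed no pairing of model with control: the correlation of same-numbered deviations ran from -0.508 to -0.0392 in DRG and from -0.544 to 0.301 in skin, and 0 of 6 samples in either tissue correlated best with their own number. In model mice the library names carry other numbers than the titles, and matching model to control on those was not tested. Skin and DRG libraries of a condition also share numbers, and their correlations ran from -0.154 to 0.0571 in model and from -0.0419 to 0.0786 in control mice, with 1 and 2 of 6 best with their own number. Low correlations between different tissues cannot show whether same-numbered samples came from the same mouse. With the replicate block the counts were 0 higher and 0 lower in DRG, 6 higher and 1 lower in skin, and 6 higher and 1 lower for the difference. In skin Mbp then passed (adjusted p = 0.0473) and Sox2 did not (adjusted p = 0.053).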

Other observations

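The deposited TPM of Apoe in skin did not follow the deposited counts. The ratio of TPM to CPM took values near 2 levels, 0.673 to 0.759 in model skin libraries 1, 3, 4, 5 and 6 and control skin libraries 2, 4 and 6, and 1.60 to 1.67 in model skin library 2 and control skin libraries 1, 3 and 5. The highest ratio was 2.49 times the lowest for Apoe in skin, where the next largest such spread among the 28 genes was 1.24, for Ncmap in skin. Counts of Apoe were 3939 to 6531 CPM in model skin and 4681 to 6701 CPM in control skin. A comparison of Apoe in skin on the TPM scale would therefore carry this jump, and the counts were used for it here.

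Genes of brain and spinal cord glia were also uneven among DRG libraries other than control 5. Mobp had 13.8 and 15.3 CPM in model libraries 3 and 4, where the remaining 4 had 1.44 to 5.82 CPM. Control library 6 had 32.8 CPM of it and, after control 5, the highest Gfap of the controls, 41.7 CPM.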
